A study of Mus musculus with 6 samples.

Results

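The genes described here are 8 genes of the cholinergic system: *Chat*, *Slc18a3*, *Slc5a7*, *Ache*, *Chrm1*, *Chrm2*, *Chrm3*, and *Chrm4*. They were picked by gene symbol, for the making, packing, reuptake, and breakdown of acetylcholine and for its muscarinic receptors. All 8 were among the 14477 genes with values. RNA was measured in hippocampal tissue of 6 mice at baseline and with no treatment, with 1 library per mouse. Replicates 2, 3, and 6 are Phf21bΔ4/Δ4 and replicates 5, 7, and 8 are Phf21b+/+, written Δ4/Δ4 and +/+ from here on. Phf21bΔ4/Δ4 mice carry in every cell a CRISPR/Cas9 deletion in exon 4 of *Phf21b*, which encodes a histone-binding protein. According to the methods, the line was kept on C57BL/6J and the study used young adult littermates of both sexes. The sex, exact age, litter, and library batch of each mouse are not given in the sources used here, nor is the number of founders behind the line. RNA of the whole tissue was measured, so fewer cells of a type and less RNA per cell cannot be told apart.

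Cholinergic neurons make acetylcholine from choline and acetyl-CoA with the enzyme ChAT, load it into vesicles with the transporter VAChT, and recover choline from the cleft with a high-affinity transporter, CHT1. Acetylcholinesterase splits the released transmitter, and muscarinic receptors on the target cells respond through G proteins. In the hippocampus the acetylcholine comes mainly from axons whose cell bodies lie in the medial septum and diagonal band, outside the tissue. Within the forebrain, the medial habenula, which lies close beneath the hippocampus, also holds many cholinergic cell bodies.

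The targeted gene, *Phf21b*, had 51, 75, and 89 reads in Δ4/Δ4 replicates 2, 3, and 6, against 137, 124, and 144 reads in +/+ replicates 5, 7, and 8. It was lower in all 3 Δ4/Δ4 mice, with a log2 fold change of -0.96 (FDR 0.14 by limma). Reads were summed over the gene, so the deleted part of exon 4 was not measured by itself. The listed genes held 20495605 to 24881257 reads in a library, and 1 read was worth 0.0422 to 0.0476 CPM. Some libraries stood apart from the others of their genotype. Markers of dentate granule neurons summed to 165 and 155 CPM in Δ4/Δ4 replicates 2 and 3 and to 562 to 690 CPM in the other 4 mice. Choroid plexus markers summed to 23401 CPM in +/+ replicate 7 and to 247 to 1773 CPM in the other 5 mice. The 8 genes were also fitted without these libraries.

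The 3 genes that mark a cholinergic cell were far lower in Δ4/Δ4 hippocampi, while *Ache* and the 4 muscarinic receptor genes did not pass the test. *Chat* and *Slc18a3* were at 0 or 1 read in every Δ4/Δ4 library, against 33 to 169 reads in the +/+ libraries, and *Slc5a7* was 15.6-fold lower. *Ache* and the 4 muscarinic receptor genes were all measured at levels of several CPM or more (read counts scaled to library size) in both genotypes. A gene is called here when its FDR in limma's moderated test over all 14477 genes was under 0.1 and its change was above 1.3-fold. Of the 8 genes, 3 were called, all lower in Δ4/Δ4 mice, where 176 of all genes (1.22%) were called, 0.663% of genes being lower and 0.553% higher. A gene had to reach 1 CPM in 2 or more libraries to be listed, and *Chat* and *Slc18a3* reached it in +/+ mice alone. The median log2 fold change was 0.08 over the 8 genes and -0.019 over all genes.

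**Figure D1:**
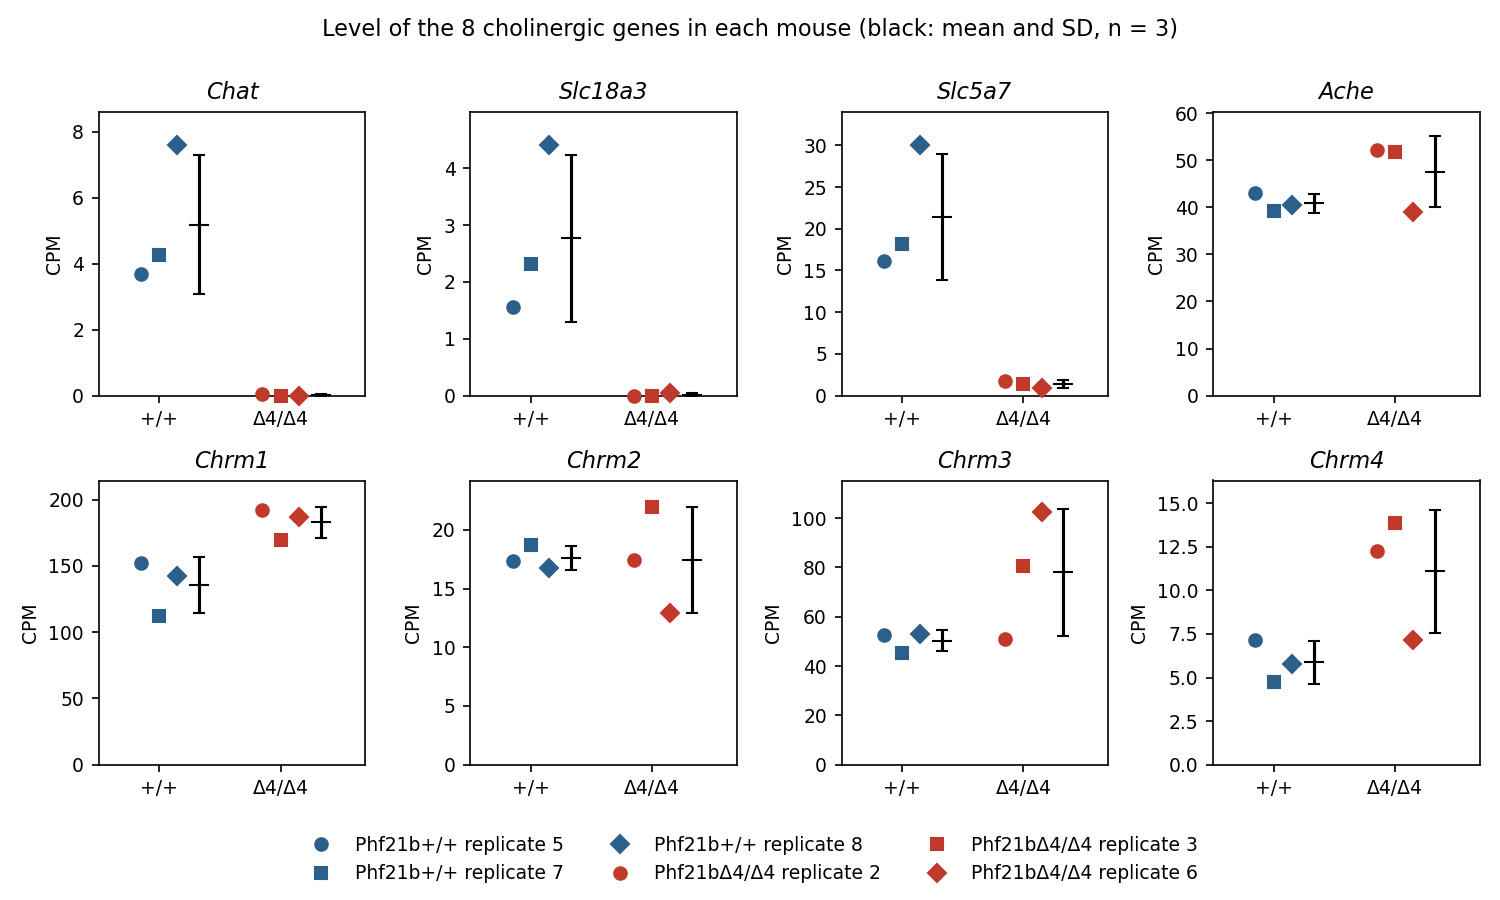
Level in CPM (y axis, linear, from 0) of the 8 genes in each +/+ mouse (blue) and each Δ4/Δ4 mouse (red), with the mean and SD of the 3 mice of a genotype in black. *Chat*, *Slc18a3*, and *Slc5a7* lie near 0 in all 3 Δ4/Δ4 mice, whereas *Ache*, *Chrm2*, *Chrm3*, and *Chrm4* overlap between the genotypes and *Chrm1* lies higher without overlap.

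*Chat* encodes choline acetyltransferase, the enzyme that makes acetylcholine. *Slc18a3* encodes VAChT, the transporter that fills synaptic vesicles with it. Their genes form 1 locus: *Chat* (ENSMUSG00000021919.8, minus strand) spans positions 32408203 to 32465989 of chromosome 14 in GRCm38, and *Slc18a3* (ENSMUSG00000100241.1), a gene of 2413 bp, lies from 32462438 to 32464850 on the same strand, inside an intron of *Chat*. The 2 gene models share 0 exon bases, so a read on the exons of one is not a read on the exons of the other. Unspliced *Chat* RNA crosses *Slc18a3*, however, and such reads would be counted to *Slc18a3*. *Slc5a7* (ENSMUSG00000023945.7), which encodes the choline transporter CHT1, lies on chromosome 17 from 54273590 to 54299034 on the minus strand.

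The DNA just before the annotated starts of these 3 called genes is shown because the study paired PHF21B with CREB, a transcription factor known to bind the cAMP response element. The full element reads TGACGTCA and its short form TGACG, or CGTCA on the other strand, so that each full element holds both short forms. The sequences are from RefSeq (GRCm38.p6), read 5′ to 3′ along the gene's minus strand and limited to letters outside annotated exons, and capitals mark the short form. They span chr14:32465990-32466159 for *Chat*, chr14:32464851-32465100 for *Slc18a3*, and chr17:54299035-54299284 for *Slc5a7*.
Chat: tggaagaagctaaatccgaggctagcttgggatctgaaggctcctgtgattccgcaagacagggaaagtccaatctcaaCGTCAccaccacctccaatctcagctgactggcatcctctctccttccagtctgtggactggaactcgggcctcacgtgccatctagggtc
Slc18a3: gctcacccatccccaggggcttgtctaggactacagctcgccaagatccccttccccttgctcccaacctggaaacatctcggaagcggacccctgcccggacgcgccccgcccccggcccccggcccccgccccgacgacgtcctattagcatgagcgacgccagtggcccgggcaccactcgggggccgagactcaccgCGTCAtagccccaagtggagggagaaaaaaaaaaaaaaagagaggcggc
Slc5a7: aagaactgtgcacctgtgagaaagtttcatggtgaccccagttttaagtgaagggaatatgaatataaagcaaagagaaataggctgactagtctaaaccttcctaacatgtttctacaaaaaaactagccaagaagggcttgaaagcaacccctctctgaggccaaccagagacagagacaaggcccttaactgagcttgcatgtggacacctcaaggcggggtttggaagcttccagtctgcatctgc
The short form occurred 1 time before *Chat* and 1 time before *Slc18a3*, and it did not occur in the letters before *Slc5a7*, the gene of the 3 with the most reads. Among 14533 windows of 300 bases at the starts of 11292 listed genes (250 bases before and 50 after the start, both strands searched), 29.5% held the short form and 2.9% the full element. None of these 3 genes had the full element. The windows of *Ache*, *Chrm2*, *Chrm3*, and *Chrm4* held neither form, the whole windows of the 3 genes had no further match, and the table has no window for *Chrm1*. A match is a run of letters and says nothing by itself of binding. Binding at this locus was measured in the study by chromatin immunoprecipitation, which found PHF21B and the histone mark H3K36me3 at the *Chat* start site. Both primers that the study gives for that site lie in the letters shown before *Slc18a3*.

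*Chat* had 1, 0, and 0 reads in Δ4/Δ4 replicates 2, 3, and 6, against 78, 101, and 169 reads in +/+ replicates 5, 7, and 8. Every Δ4/Δ4 library lay below the floor of 3 reads, the smallest level taken as measurable (0.127 to 0.143 CPM, for counting error only). In +/+ mice the level of *Chat* was 3.70, 4.26, and 7.60 CPM, a mean of 5.19 ± 2.11 CPM (SD, n = 3). The +/+ mean of *Chat* was 36.3 times the highest Δ4/Δ4 floor, a ratio for the mean and not a limit that holds for each mouse. The fitted log2 fold change was -8.98 (standard error 1.09; limma, FDR 0.050), and its size depends on the small count added before the log. The genotypes did not overlap, and the exact permutation test gave p = 0.1, the smallest value that 3 mice against 3 allow. The *Chat* call was lost without +/+ replicate 5, 7, or 8, with an FDR of 0.11, 0.24, or 0.26 by limma. The log2 fold change was -9.19, -9.09, or -8.67 in these fits. Over all fits that left out a mouse of either genotype, it stayed between -10.11 and -8.42.

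*Slc18a3* followed the same split of the mice. It had 0, 0, and 1 reads in Δ4/Δ4 replicates 2, 3, and 6, against 33, 55, and 98 reads in +/+ replicates 5, 7, and 8, so the +/+ mice stood in the same order as for *Chat*, with replicate 8 the highest. The level in +/+ mice was 2.76 ± 1.47 CPM (SD, n = 3), and this mean was 19.3 times the highest Δ4/Δ4 floor. The fitted log2 fold change was -8.00 (standard error 1.19; limma, FDR 0.067; exact permutation p = 0.1). *Slc18a3* was the least firmly called of the 3 genes: it stayed called in 1 of the 6 fits that left out a mouse, the one without Δ4/Δ4 replicate 6. That fit called 2830 genes over the whole table and left out the only Δ4/Δ4 read of *Slc18a3*. The FDR of *Slc18a3* by limma was 0.20 and 0.12 without Δ4/Δ4 replicates 2 and 3, and 0.11, 0.28, and 0.32 without +/+ replicates 5, 7, and 8.

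*Slc5a7* was lower but still measurable in every Δ4/Δ4 library. There it had 43, 29, and 21 reads (replicates 2, 3, and 6), against 339, 430, and 669 reads in +/+ replicates 5, 7, and 8. The level was 1.37 ± 0.450 CPM in Δ4/Δ4 mice and 21.4 ± 7.55 CPM in +/+ mice (SD, n = 3 per genotype). The highest Δ4/Δ4 mouse, at 1.81 CPM, was well under the lowest +/+ mouse, at 16.1 CPM. The log2 fold change was -3.96 (95% interval -4.75 to -3.17, FDR 0.016 by limma), and *Slc5a7* was called in all 6 fits that left out a mouse, with FDRs of 0.0062 to 0.0998.

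The shares of *Chat* and *Slc18a3* reads beside those of *Slc5a7*, a measure chosen after the values were seen, were lower in the Δ4/Δ4 libraries than in the +/+ libraries. Of the reads on *Chat* and *Slc5a7* together, *Chat* took 18.7%, 19.0%, and 20.2% in +/+ replicates 5, 7, and 8, so the share varied little among these mice although the level of *Chat* ranged from 3.70 to 7.60 CPM. In the 3 Δ4/Δ4 libraries summed, *Chat* had 1 read beside 93 of *Slc5a7*, or 1.06% (exact 95% binomial interval 0.0269% to 5.79%), against 19.5% (17.7% to 21.4%) in the +/+ libraries summed. *Slc18a3* likewise had 1 read beside the 93 of *Slc5a7*, 1.06% (0.0269% to 5.79%), against 11.5% (9.94% to 13.1%) in the +/+ libraries. These intervals cover counting error only and not the spread between mice, and the shares were not tested over mice. For the summed libraries the intervals of the genotypes did not overlap in either ratio. For single Δ4/Δ4 libraries, with 21 to 43 reads on *Slc5a7*, the intervals were wide and in part overlapped those of +/+ mice. The *Chat* share was 2.27% (0.0575% to 12.02%), 0% (0% to 11.9%), and 0% (0% to 16.1%) in Δ4/Δ4 replicates 2, 3, and 6, and the *Slc18a3* share was 0% (0% to 8.22%), 0% (0% to 11.9%), and 4.55% (0.115% to 22.8%).

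*Ache* encodes acetylcholinesterase, which splits acetylcholine in the synaptic cleft and is made by cholinergic and by other neurons. It lies on chromosome 5 from 137287519 to 137294466 on the plus strand (ENSMUSG00000023328.14) and shares 98 exon bases with *Gm42456*, a gene on the other strand. Whether the counting used strand is not given in the sources used here. *Ache* was at 52.1, 51.7, and 38.9 CPM in Δ4/Δ4 replicates 2, 3, and 6 and at 43.0, 39.1, and 40.5 CPM in +/+ replicates 5, 7, and 8. Replicate 6 lay below all +/+ mice and the other Δ4/Δ4 mice above them, so the genotypes overlapped. The log2 fold change was 0.21 (95% interval -0.10 to 0.51, FDR 0.34 by limma), an interval that lies wholly above that of *Slc5a7*. Taken within each mouse, the level of *Chat*, *Slc18a3*, and *Slc5a7* relative to *Ache* in log2 CPM differed by -9.19, -8.21, and -4.17 between the genotypes. None of these 3 differences overlapped between the genotypes (exact permutation test, p = 0.1 for each, 0.23 after adjustment over the 9 pairs of genes compared). With 3 mice against 3 this p cannot go lower. *Ache* stayed between 38.9 and 52.1 CPM, so the outcome followed from the levels of the 3 genes and adds no support of its own. For *Chat* and *Slc18a3* the size of the difference rests on 0 or 1 read in each Δ4/Δ4 library.

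None of the 4 muscarinic receptor genes was called, and their log2 fold changes ran from -0.04 to 0.88. *Chrm1* and *Chrm3* encode the M1 and M3 receptors, which couple to Gq and phospholipase C, and M1 is the main muscarinic receptor of forebrain pyramidal cells. *Chrm2* and *Chrm4* encode the M2 and M4 receptors, which couple to Gi and are found in part on cholinergic and other nerve endings. *Chrm1* lies on chromosome 19 from 8663789 to 8683587 (plus strand), *Chrm2* on chromosome 6 from 36388084 to 36528414 (plus strand), *Chrm3* on chromosome 13 from 9875486 to 10360847 (minus strand), and *Chrm4* on chromosome 2 from 91927249 to 91928688 (plus strand). *Chrm1* shares 329 exon bases with *Gm22820* and *Chrm2* 142 with *9330158H04Rik*, both on the other strand.

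*Chrm1* was at 192, 170, and 187 CPM in Δ4/Δ4 replicates 2, 3, and 6 and at 152, 112, and 142 CPM in +/+ replicates 5, 7, and 8. It was the only one of the 5 genes for breakdown and reception whose genotypes did not overlap, and over all genes 31.0% did not overlap. The means were 183 ± 11.6 and 136 ± 20.9 CPM (SD, n = 3 per genotype), a 1.36-fold difference. The log2 fold change was 0.44 (95% interval 0.14 to 0.74), but the FDR was 0.15 by limma and the exact permutation p was 0.1, so *Chrm1* was not past the threshold. Weighting the mice by limma's arrayWeights, which called 3549 of all genes, brought *Chrm1* past it, with an FDR of 0.023 and a log2 fold change of 0.41. Without +/+ replicate 7, high in choroid plexus markers, the log2 fold change was 0.31 with an FDR of 0.345 by limma, and without Δ4/Δ4 replicates 2 and 3, low in dentate markers, it was 0.47 with an FDR of 0.54 by limma.

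*Chrm3* varied widely among the Δ4/Δ4 mice. It was at 50.9, 80.7, and 102 CPM in replicates 2, 3, and 6, and at 52.5, 45.4, and 52.9 CPM in +/+ replicates 5, 7, and 8. Replicate 2 lay within the +/+ range and the other Δ4/Δ4 mice above it. The log2 fold change was 0.58 (95% interval 0.00 to 1.16, FDR 0.21 by limma; exact permutation p = 0.3). Without Δ4/Δ4 replicates 2 and 3 it was 1.03 with an FDR of 0.13 by limma.

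*Chrm4* was at 12.3, 13.9, and 7.13 CPM in Δ4/Δ4 replicates 2, 3, and 6 and at 7.17, 4.73, and 5.75 CPM in +/+ replicates 5, 7, and 8. The genotypes overlapped only because Δ4/Δ4 replicate 6 lay just under +/+ replicate 5. The log2 fold change of *Chrm4* was 0.88 (95% interval 0.20 to 1.56, FDR 0.16 by limma; exact permutation p = 0.2), and the FDR was up to 0.39 by limma with a mouse left out. Without Δ4/Δ4 replicate 6, which leaves the 2 Δ4/Δ4 libraries low in dentate markers, it was 1.17 with an FDR of 0.029 by limma. Without those 2 libraries it was 0.30 with an FDR of 0.73 by limma. With arrayWeights it was 1.01 with an FDR of 0.014 by limma. The fits that called *Chrm4* also called many other genes, 2830 over the whole table without replicate 6 and 3549 with arrayWeights.

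*Chrm2* did not stand apart in either direction. Its levels were 17.5, 22.0, and 12.9 CPM in Δ4/Δ4 replicates 2, 3, and 6 and 17.3, 18.7, and 16.7 CPM in +/+ replicates 5, 7, and 8. The Δ4/Δ4 mice lay on both sides of the +/+ range. The log2 fold change was -0.04 (95% interval -0.50 to 0.41, FDR 0.90 by limma), and its sign turned under quantile normalization (0.04), centring (0.01), and arrayWeights (0.05), and without Δ4/Δ4 replicate 6 (0.16) or +/+ replicate 7 (0.0024).

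**Figure D2:**
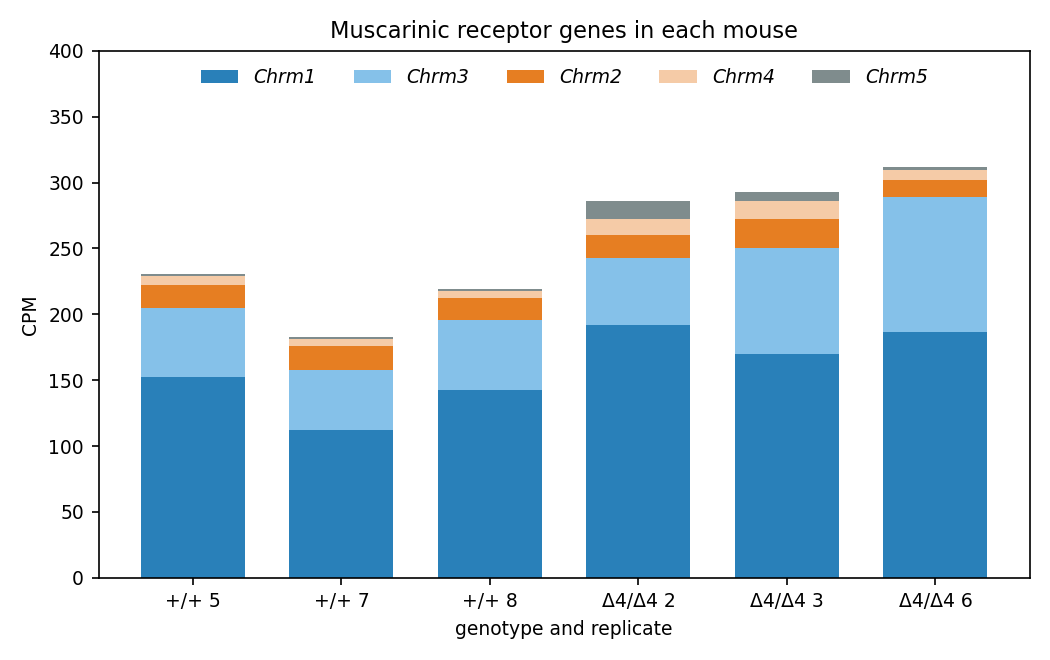
Level in CPM (y axis, linear, from 0) of the 5 muscarinic receptor genes, stacked, in each of the 6 mice (x axis, genotype and replicate). The summed level is 286 to 312 CPM in the Δ4/Δ4 mice and 183 to 231 CPM in the +/+ mice, and *Chrm1* and *Chrm3* take most of it in every mouse. CPM is not scaled to gene length.

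*Chrm5*, which encodes the fifth muscarinic receptor, is not among the 8 genes and was added after its values were seen. It had 308, 143, and 68 reads in Δ4/Δ4 replicates 2, 3, and 6, against 36, 49, and 35 reads in +/+ replicates 5, 7, and 8. All Δ4/Δ4 mice lay above the +/+ mice, with a log2 fold change of 1.85 (95% interval 0.64 to 3.06), and *Chrm5* did not pass the test (FDR 0.14 by limma).

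The 5 receptor genes summed to 297 ± 13.7 CPM in Δ4/Δ4 and 211 ± 25.0 CPM in +/+ mice (SD, n = 3 per genotype), and the genotypes did not overlap (exact permutation test, p = 0.1, the smallest possible). *Chrm1* took 61.7 ± 4.89% of the sum in Δ4/Δ4 mice and 64.0 ± 2.46% in +/+ mice, a difference within the spread between mice (exact permutation p = 0.5). *Chrm2* took 6.11%, 7.49%, and 4.14% in Δ4/Δ4 replicates 2, 3, and 6 and 7.50%, 10.2%, and 7.62% in +/+ replicates 5, 7, and 8, so the genotypes were next to each other but did not overlap (exact permutation p = 0.1). In the 6 pairs among *Chrm1* to *Chrm4*, the difference within a mouse did not overlap between the genotypes for 1 pair. *Chrm2* exceeded *Chrm4* by 0.68 ± 0.17 on the log2 CPM scale in Δ4/Δ4 mice and by 1.599 ± 0.36 in +/+ mice (SD, n = 3 per genotype; exact permutation p = 0.1, 0.23 after adjustment over 9 pairs). CPM is not scaled to gene length, so these shares and differences compare genotypes and do not rank the receptors by transcript number. Per kb of annotated exon (6.053 kb for *Chrm2* and 1.44 kb for *Chrm4*), *Chrm4* was the higher. The annotated model of *Chrm4* holds coding sequence alone, however, so these values do not rank the 2 genes. The means were 7.70 against 2.88 CPM per kb in Δ4/Δ4 mice and 4.08 against 2.91 in +/+ mice.

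Per kilobase of annotated exon, *Chrm1* was the highest of the 7 genes compared in both genotypes, at 20.9 ± 3.22 CPM per kb in +/+ mice and 28.2 ± 1.78 CPM per kb in Δ4/Δ4 mice (SD, n = 3 per genotype, as for all levels per kb here). In +/+ mice it was followed by *Ache* at 8.84 ± 0.425, *Chrm3* at 8.03 ± 0.675, *Slc5a7* at 3.80 ± 1.34, *Chrm2* at 2.91 ± 0.171, *Slc18a3* at 1.15 ± 0.609, and *Chat* at 1.10 ± 0.448 CPM per kb. The levels of *Slc5a7* and *Chrm2* overlapped among the +/+ mice, as did those of *Slc18a3* and *Chat*, and *Ache* and *Chrm3* differed by less than the sum of their SDs. In Δ4/Δ4 mice *Slc5a7* was at 0.243 ± 0.0798 CPM per kb and no longer overlapped *Chrm2*, which was at 2.88 ± 0.747 CPM per kb. *Chrm4* is left out of this order because its annotated model, 1440 bp in 1 exon, holds coding sequence alone.

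**Figure D3:**
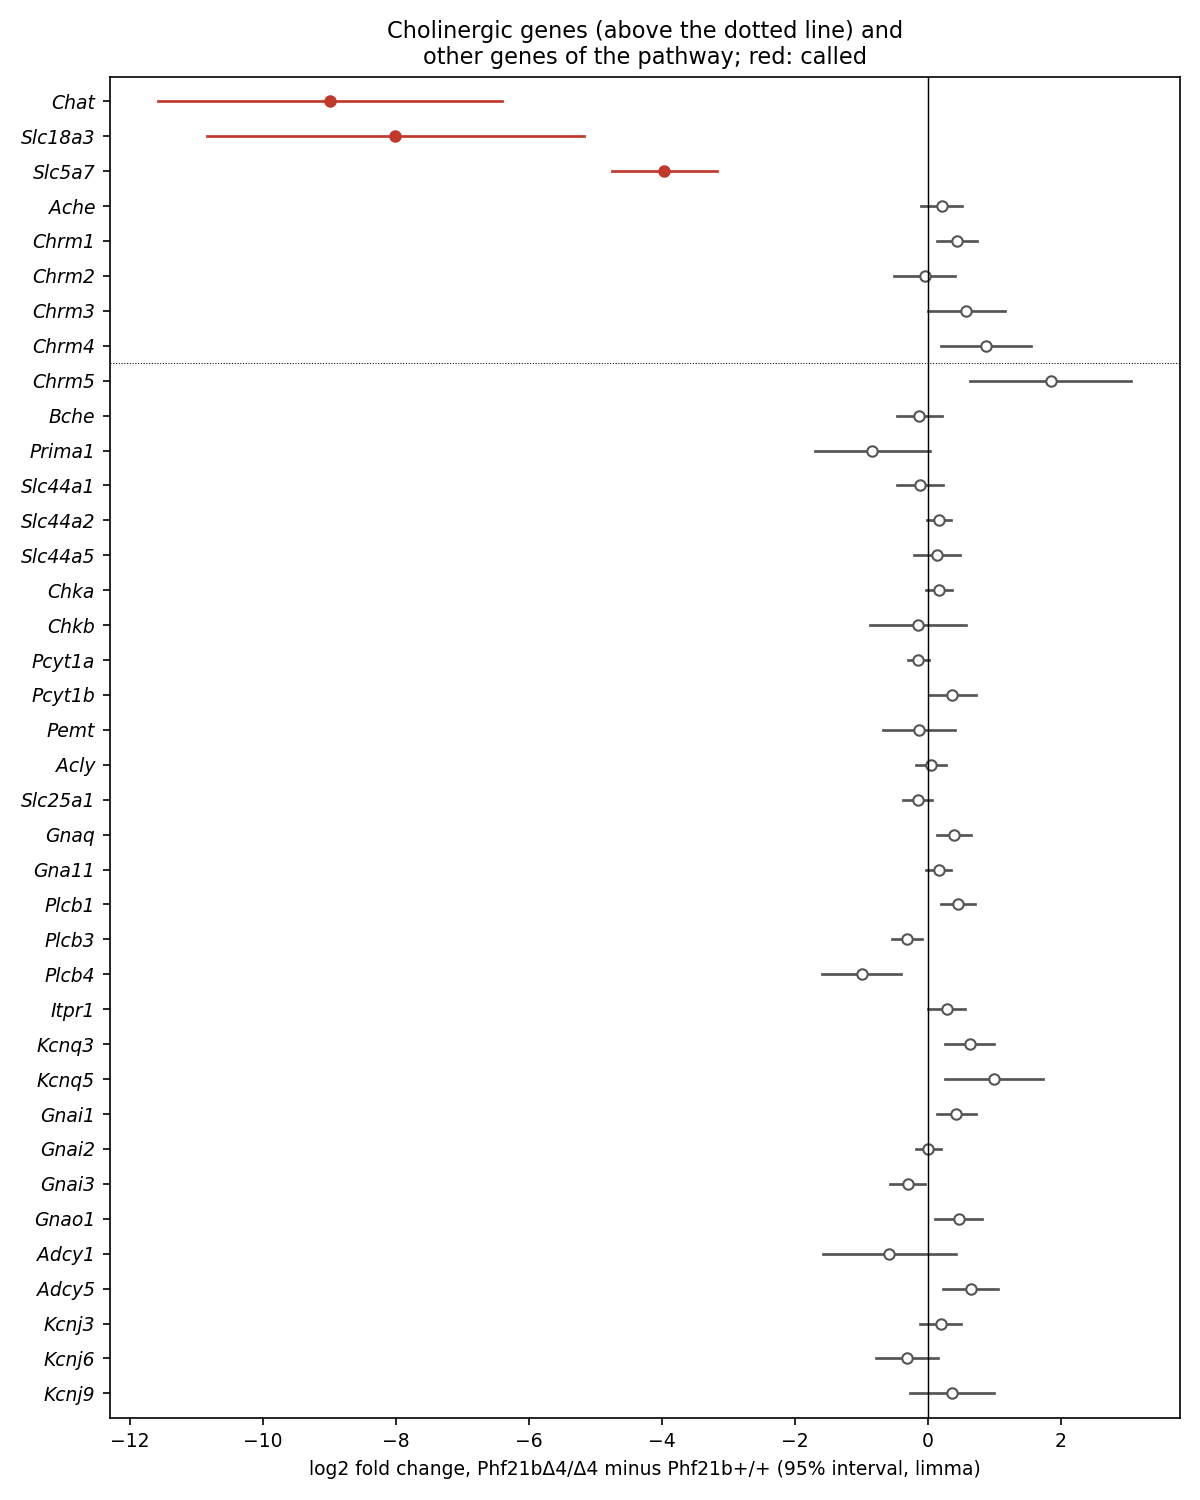
Log2 fold change (x axis, Δ4/Δ4 minus +/+, point) with its 95% interval from limma (line) for the 8 genes, above the dotted line, and for other measured genes for choline and acetyl-CoA supply and use, transmitter breakdown, and muscarinic signaling. Filled red points passed both thresholds, and these are *Chat*, *Slc18a3*, and *Slc5a7* with -8.98, -8.00, and -3.96.

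Genes for the supply and use of choline and acetyl-CoA, and genes that act after the receptors, were set beside the 8 genes. Of 12 genes that supply or use choline or supply acetyl-CoA, 10 were measured and 0 were called, with log2 fold changes from -0.15 to 0.37 and a smallest FDR of 0.20 by limma. *Acly*, the source of cytosolic acetyl-CoA, was at 240 ± 20.3 CPM in Δ4/Δ4 and 231 ± 15.4 CPM in +/+ mice, and *Slc44a1*, a widespread choline transporter, was at 150 ± 29.5 and 160 ± 13.3 CPM (SD, n = 3 per genotype). For both, the mice of the genotypes overlapped. Of the cholinesterases and their anchors, 3 of 4 were measured and 0 were called. *Bche*, which encodes butyrylcholinesterase, had a log2 fold change of -0.13 (FDR 0.58 by limma), and *Prima1*, which encodes the membrane anchor of acetylcholinesterase and was picked after its values were seen, had one of -0.83 (FDR 0.22 by limma).

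The Gq arm, the genes of the M1, M3, and M5 receptors and their effectors, had 12 of 12 genes measured and 0 called. Its median log2 fold change was 0.45, and 9 of the 12 genes were higher without overlap and 2 were lower without overlap, where 31.0% of all genes did not overlap in either direction. *Plcb1*, the main phospholipase C of M1 signaling, was at 489 ± 17.8 CPM in Δ4/Δ4 and 358 ± 43.2 CPM in +/+ mice, and the calcium release channel gene *Itpr1* was at 917 ± 113 and 749 ± 25.2 CPM (SD, n = 3 per genotype). Their FDRs by limma were 0.13 and 0.21. *Plcb4*, another phospholipase C and the lower of the 2 genes that were lower without overlap, was picked after its values were seen and had a log2 fold change of -0.99 (FDR 0.14 by limma).

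The Gi arm, the genes of the M2 and M4 receptors with their G proteins, cyclases, and potassium channels, had 11 of 11 genes measured and 0 called, with a median log2 fold change of 0.20. The G protein gene *Gnao1* was at 394 ± 55.9 CPM in Δ4/Δ4 and 285 ± 41.0 CPM in +/+ mice (SD, n = 3 per genotype; FDR 0.16 by limma). The cyclase gene *Adcy1* varied most of the list among the Δ4/Δ4 mice, with 16155, 27630, and 55522 reads in replicates 2, 3, and 6, against 42423 to 44244 reads in the +/+ mice.

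The nicotinic receptor subunits, the other receptor family for acetylcholine, had 8 of 16 genes measured. Of these, 3 were called, all lower, against 0.663% of all genes called lower, and the median log2 fold change over the 8 was 0.05. The 3 called subunits were *Chrnb4*, *Chrna3*, and *Chrnb3*, with log2 fold changes of -5.93, -5.41, and -3.27 (FDRs of 0.038, 0.0023, and 0.065 by limma). All 3 were under 1 CPM in every Δ4/Δ4 library, and all 3 also belong to the medial habenula markers described next. *Chrnb2* and *Chrna7*, the widespread subunits with the highest levels of the list, had log2 fold changes of 0.21 and 0.64 (FDRs of 0.28 and 0.15 by limma).

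Markers of the cell types that could carry cholinergic transcripts were measured in the same libraries. Of 12 markers of medial habenula neurons, none of them among the 8 genes, 11 were called lower, against 0.663% of all genes, and all 12 were lower without overlap, against 31.0% of all genes without overlap in either direction. Their summed level was 32.8 to 39.6 CPM in Δ4/Δ4 mice and 266 to 344 CPM in +/+ mice, with a median log2 fold change of -3.77. The transcription factor gene *Pou4f1* had 2, 1, and 0 reads in Δ4/Δ4 replicates 2, 3, and 6, against 385, 286, and 458 reads in +/+ replicates 5, 7, and 8. *Irx2* had 1, 0, and 0 reads against 203, 193, and 273, so these markers were at or near 0 in the same libraries as *Chat* and *Slc18a3*. The exception among the calls was *Tac1* (FDR 0.13 by limma). The list was chosen with earlier results of these data known, and most of its genes are in the study's own list of changed genes. *Pou4f1*, *Irx2*, *Chrna3*, *Chrnb3*, *Chrnb4*, and *Gng8* were under 1 CPM in every Δ4/Δ4 library and were listed through the +/+ mice alone. The share of markers called is therefore not independent of these data. The part of the habenula markers in the low *Chat*, *Slc18a3*, and *Slc5a7* levels was not tested.

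Of 8 markers of basal forebrain and striatal cholinergic neurons, 3 were measured, and the list rests on these. *Zic4* was called lower with a log2 fold change of -5.05 (FDR 0.072 by limma), where 0.663% of all genes were called lower. *Isl1* had 0, 0, and 7 reads in Δ4/Δ4 replicates 2, 3, and 6, against 2, 76, and 22 reads in +/+ replicates 5, 7, and 8, and *Ngfr*, a receptor of septal cholinergic neurons, had 24 to 45 and 27 to 55 reads. The genotypes overlapped for both. Of 4 motor neuron markers, 0 were measured. Thalamic markers summed to 203 to 356 CPM in Δ4/Δ4 mice and 278 to 546 CPM in +/+ mice. Of these 7, 1 was called lower, against 0.663% of all genes. It was *Tcf7l2*, which is on the habenula list too. Of 7 striatal markers 0 were called.

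**Figure D4:**
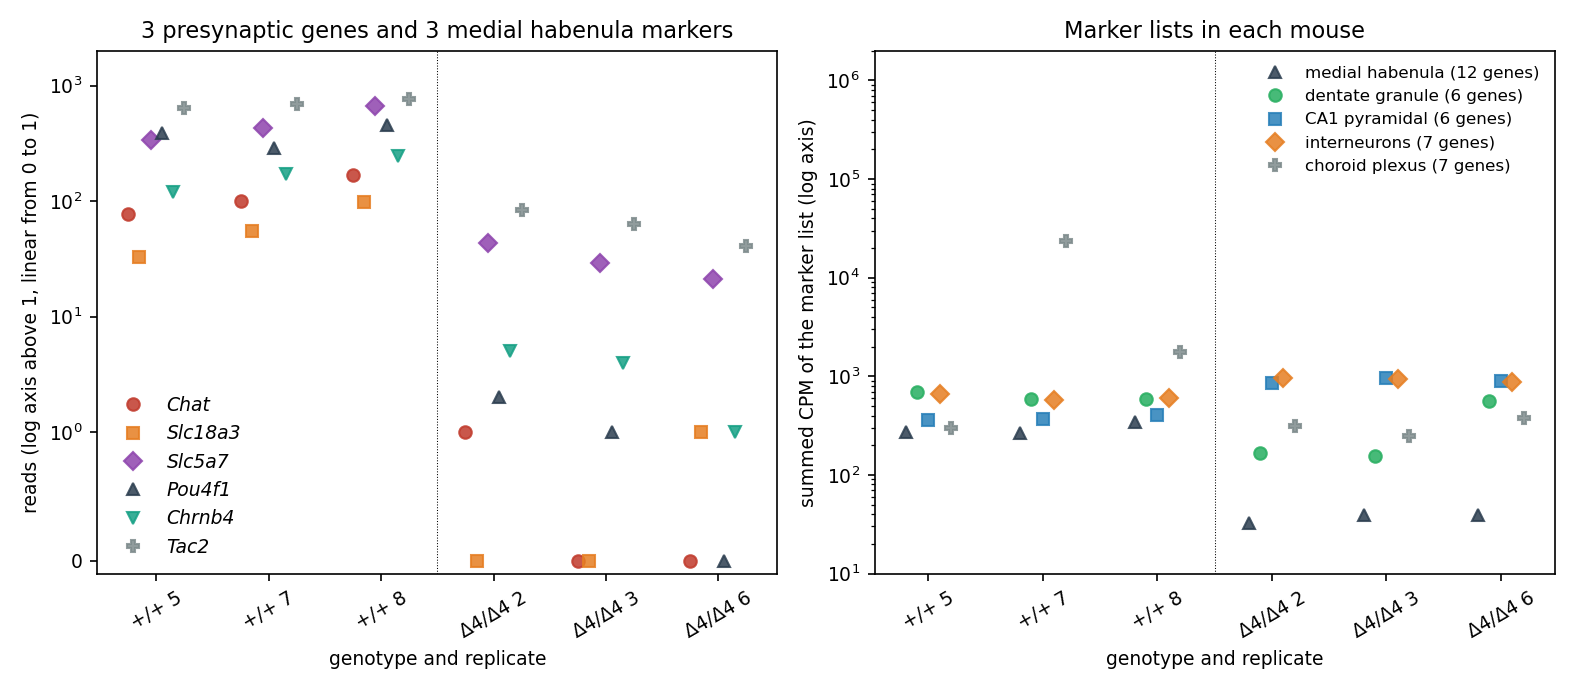
Left, reads of the 3 called genes and of 3 habenula markers in each mouse (y axis logarithmic above 1 and linear from 0 to 1), with all 6 genes lower in each Δ4/Δ4 mouse than in each +/+ mouse. Right, summed CPM (log axis) of 5 marker lists in each mouse, in which the habenula list is low in all 3 Δ4/Δ4 mice, the dentate list is low in replicates 2 and 3 alone, and the choroid plexus list is highest in +/+ replicate 7.

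Hippocampal cell type markers also differed between the libraries. CA1 pyramidal markers summed to 859 to 971 CPM in Δ4/Δ4 and 363 to 402 CPM in +/+ mice. Of these 6, *Fibcd1* and *Mpped1* were called higher, against 0.553% of all genes, and 3 were higher without overlap. Over all genes 31.0% did not overlap in either direction. Interneuron markers summed to 876 to 963 and 580 to 668 CPM. Of these 7, *Gad2* was called higher, and 6 were higher without overlap. Of the 6 dentate granule markers 0 were called and 4 were lower without overlap, with a median log2 fold change of -1.46. Of 7 markers of CA2 and CA3, 0 were called and 2 were lower without overlap. Of the 7 choroid plexus markers 0 were called as well. The part of these lists in the receptor levels was not tested. Without Δ4/Δ4 replicates 2 and 3, which were low in dentate markers, *Chat* and *Slc5a7* were still called (log2 fold changes of -10.11 and -4.49), *Slc18a3* was not (-5.72, FDR 0.13 by limma), and *Ache* was at -0.07 (FDR 0.83 by limma).

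The genes whose log2 CPM ran most closely with each of 5 of the genes over the 6 mice were ranked by Pearson's r, as a description. With *Chat* these were *D130009I18Rik* (r = 0.999), *Irx2* (0.999), and *Pcyt1a* (0.990). *D130009I18Rik* had 1, 0, and 0 reads in the Δ4/Δ4 mice and 51, 48, and 78 in the +/+ mice, while *Pcyt1a*, which acts in phosphatidylcholine synthesis, had a log2 fold change of -0.15 and was not called. With *Slc18a3* they were *Rpl21* (0.998), *Gm50431* (0.997), and *Pam16* (0.997), and with *Slc5a7* they were *1810037I17Rik* (0.995), *Tac2* (0.994), and *Ice2* (0.994). *Tac2* is a habenula marker, with 41 to 83 reads in Δ4/Δ4 and 639 to 770 reads in +/+ mice. With *Chrm1* they were *5730409E04Rik* (0.998), *Atxn10* (0.997), and *Fkbp1b* (0.995), and with *Ache* they were *Arsa* (0.998), *Dusp22* (0.998), and *Nxph2* (0.997). Of the 14476 other genes, 82 had an r above 0.95 with *Chat* and 271 with *Slc18a3*, over 6 points of which 3 share a genotype. The Δ4/Δ4 levels of *Chat*, *D130009I18Rik*, *Irx2*, and *Slc18a3* were all under the floor of 3 reads. Their order among the Δ4/Δ4 mice rests on 1 read each. That read was in replicate 2 for *Chat*, *D130009I18Rik*, and *Irx2* and in replicate 6 for *Slc18a3*, so these ranks do not show shared expression.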

How the data were processed

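Total RNA of 6 hippocampi was sequenced after removal of ribosomal RNA. According to the methods and the submitters' processing notes, the authors used Trimmomatic 0.39 for trimming, STAR 2.7.3a for mapping to GRCm38, featureCounts of Subread 1.6.4 for counting over GENCODE genes, and edgeR for scaling. Genes had to reach 1 CPM in 2 or more samples, and log2 CPM of the 14477 genes that did were deposited. The strandedness of the counting and the count added before the log are not given in the sources used here. Low values rose in steps of 1 read, so whole reads and CPM were worked out from them: 100.0% of the values were whole within 0.1 reads, with 20495605 to 24881257 reads per mouse, and 3 reads in a library were taken as the floor.

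Phf21bΔ4/Δ4 was compared with Phf21b+/+ in limma 3.58.1 under R 4.3.3 (lmFit, eBayes with a trend), on log2 CPM as deposited, 2-sided, without covariates, with Benjamini-Hochberg adjustment over all genes. Called genes had an FDR under 0.1 and changed by more than 1.3-fold, as in the study's methods. The fit was tested on simulated data. Exact permutation tests used all ways to divide the 6 mice. P-values measure the spread between these 6 libraries. Positions and exon lengths come from GENCODE M21 (GRCm38), which holds 14303 of the symbols (98.8%), and promoter letters come from RefSeq. The genes and lists were chosen with earlier results of these data known. Named were the 8 genes, *Phf21b*, the 3 genes most alike to each called gene, *Chrm1*, and *Ache*, overlapping genes, and in each list up to 4 called genes and the 2 with the highest levels. Others were picked after their values were seen.

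The alternatives were no trend, robust empirical Bayes, arrayWeights, log2(CPM + 1), log2(CPM + 0.1), a mean log2 CPM of at least 1, quantile normalization, centring, voom on the whole reads, an FDR under 0.05, and leaving out each mouse. Leaving out Phf21bΔ4/Δ4 replicates 2 and 3 together was chosen after seeing the data.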

Additional observations from a re-analysis of the deposited data

How the results depend on the processing

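No paired analysis was possible because the litter of each mouse is not given in the sources used here. Over the 8 genes and the alternatives, 108 of 126 values kept their direction and their side of the threshold. *Slc5a7* was called under every alternative run. With arrayWeights 5 of the 8 genes were called (*Chrm1* at 0.41 and *Chrm4* at 1.01 beside the 3), and 1, *Slc5a7*, with an FDR under 0.05 or a mean log2 CPM of at least 1. The latter filter removed *Chat* and *Slc18a3*, which are low genes, from the test. Over all genes, 176 calls became 75 without the trend (62 lower and 13 higher), 3549 with arrayWeights, 101 with the filter (46 lower and 55 higher), 25 with an FDR under 0.05, and 49 without Phf21bΔ4/Δ4 replicates 2 and 3. Without these mice *Slc18a3* was at -5.72 (FDR 0.13 by limma) and *Ache* turned to -0.0685. *Chrm2* turned to 0.0511 with arrayWeights, 0.0413 with quantile normalization, 0.0054 with centring, 0.16 without Phf21bΔ4/Δ4 replicate 6, and 0.0024 without Phf21b+/+ replicate 7. The cause of these changes was not tested. With each mouse left out, 9 to 2830 genes were called, the fewest without Phf21b+/+ replicate 8 and the most without Phf21bΔ4/Δ4 replicate 6, and 1 to 4 of the 8. The log2 fold changes ranged from -10.11 to -8.42 for *Chat*, -9.15 to -7.43 for *Slc18a3*, -4.19 to -3.69 for *Slc5a7*, 0.14 to 0.35 for *Ache*, 0.31 to 0.53 for *Chrm1*, -0.23 to 0.16 for *Chrm2*, 0.36 to 0.86 for *Chrm3*, and 0.69 to 1.17 for *Chrm4*. The fitted values of *Chat* and *Slc18a3* depend on the count added before the log and were -2.56 and -1.82 on the log2(CPM + 1) scale. Depth limits both, since 0 to 1 read per Phf21bΔ4/Δ4 library gives a bound and not a level.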

Other observations

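The proton pump that drives the loading of all small transmitters into vesicles, not only that of acetylcholine, had 8 of 8 listed subunit genes measured and 0 called. All 8 log2 fold changes were above 0, with a median of 0.26, and 5 of the 8 genes were higher without overlap between the genotypes, where 31.0% of all genes did not overlap in either direction. *Atp6v1a*, the highest of the list, was at 1018 ± 146 CPM in Phf21bΔ4/Δ4 and 848 ± 80.6 CPM in Phf21b+/+ mice (SD, n = 3 per genotype; FDR 0.29 by limma), and its genotypes overlapped. *Atp6v1b2* was at 678 ± 72.6 CPM in Phf21bΔ4/Δ4 and 533 ± 44.2 CPM in Phf21b+/+ mice (SD, n = 3 per genotype; FDR 0.17 by limma), without overlap.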
